A study of Mus musculus with 6 samples.

Results

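Myl7, Myl4, Sln, Bmp10, Dkk3 and Clec3a are 6 genes listed as markers of the heart's atria, looked up by name in libraries made from left ventricle tissue. All 6 were found among the 34745 genes of each count table. The genes were chosen by name, with their counts per library and their difference between the groups in these same data already known, so levels and fold changes of the 6 genes are given as a description and support nothing further. Bmp10 had no count in any library, and the other 5 genes passed the filter on low counts. Clec3a passed it only through the MI-DAPA libraries, so it had to differ between the groups.

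The libraries came from mice with myocardial infarction (MI), in which blocked coronary flow kills part of the heart muscle. MI-NS (3 libraries) is used as the control group, whose abbreviation NS the labels leave unexplained. MI-DAPA (3 libraries) came from mice with MI treated with dapagliflozin, a drug that blocks the kidney's glucose transporter SGLT2. Infarction is shared by both groups; strain, sex, age, dose and time after infarction are not stated in the labels. No library of atrial tissue or of hearts without infarction was among the 6, so a level here cannot be turned into a share of atrial tissue. The labels number the libraries as biological replicates and name no animal.

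Atrial and ventricular heart muscle cells build their contractile apparatus from different gene copies. Myosin carries a regulatory and an essential light chain, which in the atria are encoded by Myl7 and Myl4 and in the ventricles by Myl2 and Myl3. The calcium pump of the sarcoplasmic reticulum is held back by the small membrane proteins sarcolipin (Sln), found in the mouse heart mainly in the atria, and phospholamban (Pln), the main ventricular one. Bmp10 encodes a growth factor of the bone morphogenetic protein family made by atrial muscle, Dkk3 a secreted protein of the Dickkopf family, and Clec3a a secreted lectin first known from cartilage. Embryonic ventricles also use Myl7 and Myl4.

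Total counts ranged from 17207974 to 20563188 per library, and 2304 of 13940 tested genes (16.5%) differed between MI-DAPA and MI-NS (1212 or 8.69% higher, 1092 or 7.83% lower; edgeR's quasi-likelihood test, Benjamini-Hochberg adjusted p under 0.05). Ventricular genes were well expressed in every library: Myl2 lay between 3347 and 4350 CPM (counts scaled to TMM-adjusted library sizes). Irx4, a transcription factor gene of ventricular muscle, lay between 22.3 and 29.4 CPM. All 9 ventricular genes listed were detected in every library. Bulk counts do not separate fewer cells of a type from less RNA per cell.

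Myl7, the atrial regulatory light chain gene (ENSMUSG00000020469, mm10 chromosome 11, 5896637 to 5898782), separated individual libraries rather than groups. It had 517, 4 and 256 counts across MI-NS replicates 1 to 3, and 4, 245 and 119 across MI-DAPA replicates 1 to 3. In CPM these were 22.9, 0.196 and 15.2 for the MI-NS libraries, then 0.199, 12.1 and 6.84 for the MI-DAPA libraries. MI-NS replicate 2 and MI-DAPA replicate 1 were thus near the floor of 3 counts (0.147 and 0.149 CPM), and the other 4 libraries were far above it, in both groups. The highest library exceeded the lowest 117-fold, and the groups overlapped fully.

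Myl4, the essential light chain gene of the atria (ENSMUSG00000061086, chromosome 11, 104550663 to 104595753), was low in the same 2 libraries. Its counts were 594, 39 and 346 in the MI-NS libraries and 40, 453 and 294 in the MI-DAPA libraries. Both low libraries kept a level of 1.91 CPM in MI-NS replicate 2 and 1.99 CPM in MI-DAPA replicate 1, well above the floor, against 16.9 to 26.4 CPM in the others. The annotation places 3 short genes on the opposite strand within Myl4, with 0 to 5 counts each. The sources do not say whether counting used strand, so reads of Myl4 and of these genes may not be told apart.

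Sln, the gene of sarcolipin (ENSMUSG00000042045, chromosome 9, 53850251 to 53853844), had 118, 0 and 45 counts in the MI-NS libraries and 0, 48 and 28 in the MI-DAPA libraries. The libraries at 0 were again MI-NS replicate 2 and MI-DAPA replicate 1, where a count of 0 allows up to 0.147 and 0.149 CPM. The others held 1.61 to 5.24 CPM. Floors and intervals here cover counting error only.

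**Figure D1:**
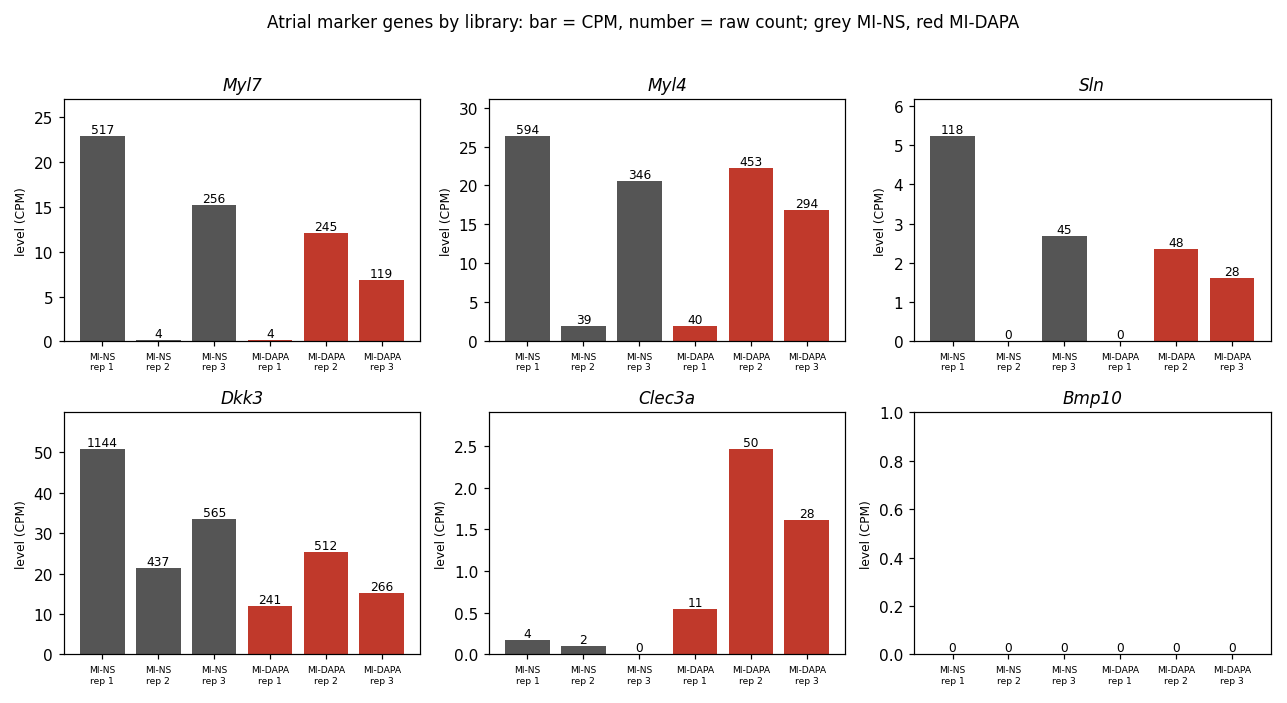
Level of each of the 6 atrial marker genes (vertical axis, CPM, from 0) in each library (horizontal axis; grey, MI-NS; red, MI-DAPA), with the raw count printed on each bar and no error bar, as each bar is 1 library. Myl7, Myl4 and Sln are lowest in MI-NS replicate 2 and MI-DAPA replicate 1, Clec3a is higher in all 3 MI-DAPA libraries, and Bmp10 is at 0 throughout.

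Within either group, these genes varied far more than most. The within-group standard deviation of log2 CPM was 3.18 for Myl7, 2.80 for Sln and 1.96 for Myl4, ranks 3, 6 and 22 of 13940 genes, where the median gene had 0.165. Dkk3 (0.58) and Clec3a (0.89) varied less, at ranks 732 and 199. Their ventricular counterparts Myl2 (0.13), Myl3 (0.12) and Pln (0.07) stayed below the median.

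In the 4 libraries rich in Myl7, Sln and Mybphl kept similar proportions to it. Sln held 22.8% of the Myl7 count in MI-NS replicate 1, 17.6% in MI-NS replicate 3, 19.6% in MI-DAPA replicate 2 and 23.5% in MI-DAPA replicate 3. Mybphl, a myosin-binding protein gene of atrial muscle that is not among the 6, behaved likewise, with 91, 3 and 46 counts in the MI-NS libraries and 0, 40 and 18 in the MI-DAPA libraries. That is 17.6% and 18.0% of Myl7 in MI-NS replicates 1 and 3, and 16.3% and 15.1% in MI-DAPA replicates 2 and 3. Myl4 did not hold 1 proportion: it was 115% and 135% of the Myl7 count in these MI-NS libraries, 185% and 247% in the MI-DAPA ones, and 975% and 1000% where Myl7 had 4 counts.

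**Figure D2:**
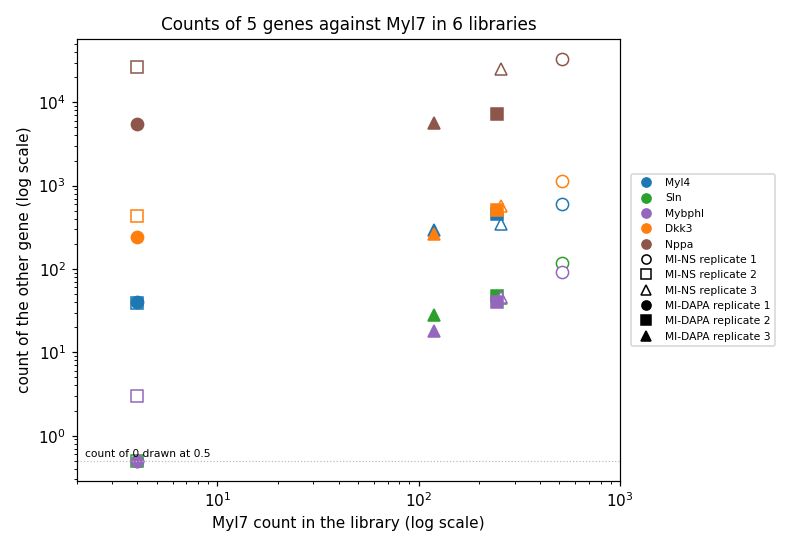
Counts of Myl4, Sln, Mybphl, Dkk3 and Nppa (vertical axis, log scale) against the Myl7 count (horizontal axis, log scale) in the same library; open symbols are MI-NS, filled ones MI-DAPA, the shape gives the replicate number, and a count of 0 is drawn at 0.5. Sln and Mybphl climb with Myl7 from 0 to 3 counts up to 118 and 91, while Nppa separates by group at every Myl7 level.

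A search of the whole table, made after these values were seen, asked which genes were at least 4-fold lower in both MI-NS replicate 2 and MI-DAPA replicate 1 than in every other library, with at least 0.5 CPM in each of those. Of 34745 genes 4 met this: Myl7, Myl4, Sln and Mybphl. The same 4 met a 3-fold limit, and 9 genes met a 2-fold limit. In the opposite direction 0 genes met the 4-fold limit and 1 the 3-fold one. The search is a description of these libraries, with no test.

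Likeness over the 6 libraries, by Pearson's r of log2 CPM among genes whose mean log2 CPM was 1 or more, ranked Myl4 (0.995), Mat2a (0.989) and Mapkapk5 (0.988) closest to Myl7. For Myl4 the closest were Myl7, Mat2a (0.988) and Dhrs13 (0.987), and for Sln they were Myl7 (0.998), Myl4 (0.994) and Mapkapk5 (0.986). Of the other 13939 genes, 81 reached an r of 0.9 with Myl7 (0.581%). These values rest on 6 libraries, of which 2 lie far from the rest, and share the same library scaling.

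Per kilobase of transcript, Myl7 stood at a small part of its ventricular counterpart. Its level was 1.03%, 0.00718% and 0.545% of that of Myl2 in MI-NS replicates 1 to 3, and 0.00738%, 0.434% and 0.237% in MI-DAPA replicates 1 to 3. Myl4 was 0.744%, 0.0497% and 0.496% of Myl3 in the MI-NS libraries, then 0.0457%, 0.533% and 0.342% in the MI-DAPA libraries, per kilobase. Sln stayed at or below 0.303% of Pln, per kilobase, in every library. The spread between libraries was thus in the atrial copy.

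Ordered by CPM per kilobase, Myl7 led in MI-NS replicates 1 and 3 (38.9 and 25.8), followed by Myl4 (27.9 and 21.8) and Dkk3 (15.1 and 9.99). Myl4 led in MI-DAPA replicates 2 and 3 (23.7 and 17.9), ahead of Myl7 (20.4 and 11.6). In MI-NS replicate 2 and MI-DAPA replicate 1 Dkk3 led, at 6.38 and 3.56. Over a whole group, Myl7 and Myl4 do not differ beyond their spread. With all annotated exons as the length, 4637 bases in place of 943, Myl4 fell below Myl7 in the 4 libraries where Myl7 was high, at 14.6% to 31.4% of it.

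Myl7 and Myl4 moved together with Mybphl while Bmp10 had no counts, and the 250 bases before the start of these 4 genes are shown to set their promoters side by side, from RefSeq on GRCm38.p6, 5′ to 3′ on the gene's strand. Entries were found for 3 of the 6 atrial marker genes, Myl7, Myl4 and Bmp10. The windows are chr11:5898783-5899032 (minus strand) for Myl7, chr11:104550413-104550662 (plus) for Myl4, chr3:108364661-108364910 (plus) for Mybphl and chr6:87428744-87428993 (plus) for Bmp10. Capitals mark matches, on either strand, to the GATA words AGATAA or TGATAA, the CArG box, the M-CAT word CATTCC, the T-box word AGGTGT, the MEF2 word (CTA and TAG with any 4 bases between) and the TATA word TATAAA.
Myl7: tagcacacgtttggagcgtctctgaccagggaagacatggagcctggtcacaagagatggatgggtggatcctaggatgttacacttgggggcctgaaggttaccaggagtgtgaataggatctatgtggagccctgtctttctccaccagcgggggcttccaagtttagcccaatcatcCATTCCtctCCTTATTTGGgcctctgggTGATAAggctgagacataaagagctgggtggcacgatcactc
Myl4: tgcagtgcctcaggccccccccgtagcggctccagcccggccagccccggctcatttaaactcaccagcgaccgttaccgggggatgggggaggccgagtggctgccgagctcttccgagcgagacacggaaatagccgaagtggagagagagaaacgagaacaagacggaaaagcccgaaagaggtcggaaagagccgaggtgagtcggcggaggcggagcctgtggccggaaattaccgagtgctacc
Mybphl: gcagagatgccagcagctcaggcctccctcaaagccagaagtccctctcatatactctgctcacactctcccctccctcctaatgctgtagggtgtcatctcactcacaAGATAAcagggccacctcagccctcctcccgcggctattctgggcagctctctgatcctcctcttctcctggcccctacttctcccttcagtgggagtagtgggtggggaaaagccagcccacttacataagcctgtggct
Bmp10: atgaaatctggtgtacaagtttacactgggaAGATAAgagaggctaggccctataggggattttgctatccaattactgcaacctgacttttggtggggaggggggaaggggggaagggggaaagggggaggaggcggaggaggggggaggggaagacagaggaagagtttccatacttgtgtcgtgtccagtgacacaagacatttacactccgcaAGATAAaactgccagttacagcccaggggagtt
The Myl7 window held a GATA word 42 to 37 bases before the start, a CArG box, the binding sequence of serum response factor, 61 to 52 bases before it, and an M-CAT word, the sequence bound by TEAD factors, just upstream. None of the marked matches overlapped another. Mybphl held 1 GATA word and Bmp10 held 2, although its gene had no counts. The Myl4 window held none of the 6 motifs. Of 32851 windows of the same length, 16.6% held a GATA word, 12.6% an M-CAT word 1.47% a CArG box, 11.8% the T-box word, 3.2% the MEF2 word and 12.4% the TATA word. A match is a run of letters and is not shown to be a bound site.

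Setting MI-DAPA beside MI-NS addresses what the drug changes in hearts that fail after infarction. Among the 5 tested atrial marker genes 1 passed the test over all genes, as higher, and 0 as lower, beside 16.5% of all tested genes in either direction, 8.69% higher and 7.83% lower, and 1 had groups that did not overlap, beside 37.0% of all tested genes. Both were Clec3a. Since the genes were listed with this comparison known, nothing is read from these counts.

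Myl7 averaged 12.8 ± 11.6 CPM in MI-NS and 6.37 ± 5.95 CPM in MI-DAPA (SD, n = 3). Its log2 fold change was -1.01 ± 1.13 (SE, adjusted p = 0.583, edgeR), smaller than its own error. Sln gave -1.01 ± 1.15 (adjusted p = 0.589, edgeR), and Myl4 -0.25 ± 0.86 (adjusted p = 0.875, edgeR). These errors are those of libraries that differ 13.8-fold for Myl4 and 117-fold for Myl7. With MI-NS replicate 1 left out, the values became -0.24 for Myl7, 0.05 for Sln and 0.32 for Myl4, so that 1 library sets their size and, for Sln and Myl4, their sign. Without MI-DAPA replicate 1, Myl4 was at 0.27.

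Among the 4 libraries with Myl7 well above the floor, MI-NS replicates 1 and 3 had more Myl7 than MI-DAPA replicates 2 and 3. Without MI-NS replicate 2 and MI-DAPA replicate 1 together, an alternative chosen after seeing the data, the log2 fold change of Myl7 was -1.01 ± 0.29 with adjusted p = 0.0994 by edgeR. Sln was then at -1.0 ± 0.39 and Myl4 at -0.26 ± 0.18, and neither passed.

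**Figure D3:**
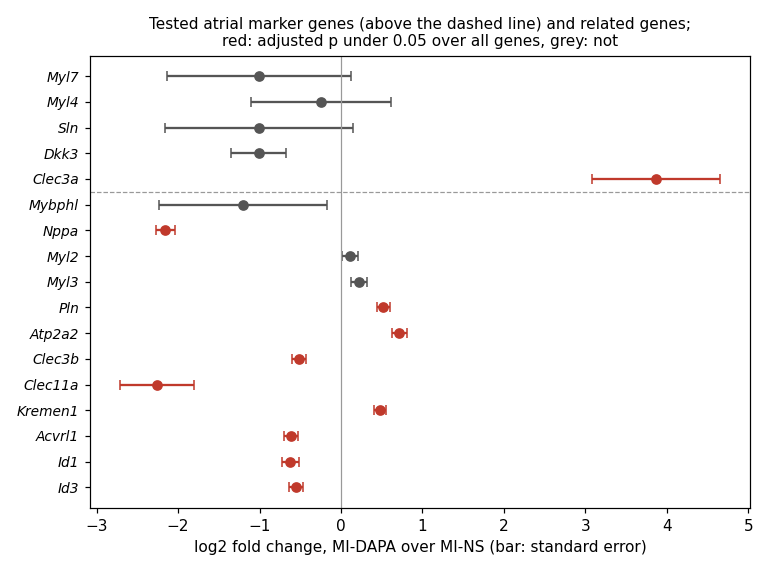
Log2 fold change of MI-DAPA over MI-NS (horizontal axis) with its standard error (bar) for the 5 tested atrial marker genes above the dashed line and 12 related genes below it; red points passed the test over all genes and grey points did not. Myl7, Myl4, Sln and Mybphl have the widest bars on the falling side, while Nppa at -2.15 and Pln at 0.52 have narrow ones.

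The ventricular counterparts moved little or rose. Myl2 had a log2 fold change of 0.11 ± 0.10 and Myl3 of 0.22 ± 0.10, and neither passed. Pln rose 1.43-fold, from 3111 ± 171 to 4459 ± 193 CPM (SD, n = 3; adjusted p = 0.00602, edgeR), and the calcium pump gene Atp2a2 rose 1.64-fold (log2 0.72 ± 0.09, adjusted p = 0.00435, edgeR). Of 19 tested genes of myosin light chains and their partners, Myl7 and Myl4 included, 3 rose and 5 fell, with a median log2 fold change of -0.16 beside -0.02 for all tested genes. Over all tested genes 8.69% were called higher and 7.83% lower. Mylk3, the kinase of the cardiac regulatory light chain, rose 1.40-fold and Ppp1r12b, a subunit of myosin phosphatase, rose 1.45-fold. The light chains of smooth muscle and other cells Myl6 (1.45-fold) and Myl12b (1.43-fold) fell.

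Of 12 tested genes of the calcium pump and its regulators 9 rose and 0 fell (median log2 fold change 0.43), and Sln was among the 3 that did not pass. The shares over all tested genes were 8.69% higher and 7.83% lower. Pln lost its call, with adjusted p = 0.0511, without MI-NS replicate 2 and MI-DAPA replicate 1 together, and Atp2a2 kept it.

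Nppa, the gene of atrial natriuretic peptide, is atrial in the healthy adult heart and is switched on in stressed ventricles. Within each group it was lowest in the library lowest in Myl7, by far less than Myl7 was: it measured 1293 CPM in MI-NS replicate 2 and 272 CPM in MI-DAPA replicate 1, which were the libraries lowest in Myl7, and 1469 and 1500 CPM against 361 and 325 CPM in the others. Its within-group standard deviation of log2 CPM, 0.167, was near the median of all genes. Of the 15 tested genes on the list of other atrial genes 4 rose and 1 fell, beside 8.69% of all tested genes higher and 7.83% lower. The 1 that fell was Nppa (4.45-fold, adjusted p = 0.000196, edgeR). The atrial channel subunit gene Kcnj3 rose 1.89-fold (adjusted p = 0.0213, edgeR), and the transcription factor gene Tbx5, used in both atria and ventricles, rose by 0.58 ± 0.09 on the log2 scale (adjusted p = 0.00643, edgeR). Kcnj3 lost its call without MI-DAPA replicate 1 or 3, and 1 gene of the list rose when either was left out. Mybphl, with -1.20 ± 1.03, did not pass.

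Bmp10 (ENSMUSG00000030046, chromosome 6, 87428994 to 87437677) had 0 counts in each of the 6 libraries, which allows at most 0.133 to 0.178 CPM. The libraries with the most Myl7 therefore held no Bmp10 that could be detected at this depth. In the adult mouse Bmp10 is known mainly from the right atrium. Its close relative Gdf2 (BMP9), which comes from the liver, had 0 to 2 counts.

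Acvrl1, the type I receptor ALK1 of endothelium, fell 1.53-fold, from 57.5 ± 4.84 to 37.5 ± 1.96 CPM (SD, n = 3; adjusted p = 0.00541, edgeR). Targets of BMP signalling fell as well, Id1 1.54-fold (adjusted p = 0.00836, edgeR) and Id3 1.47-fold (adjusted p = 0.00544, edgeR). Of 23 tested ligand, receptor and target genes 5 fell and 1 rose, beside 7.83% of all tested genes lower and 8.69% higher. The median log2 fold change of the 23 was -0.03. With any 1 library left out 3 or 4 of them fell and 0 to 2 rose, and Id1 lost its call (adjusted p = 0.0671, edgeR) without MI-NS replicate 2 and MI-DAPA replicate 1 together.

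Dkk3 (ENSMUSG00000030772, chromosome 7, 112116019 to 112159057) was expressed in every library, with 1144, 437 and 565 counts in the MI-NS libraries and 241, 512 and 266 in the MI-DAPA libraries. That is 50.8, 21.4 and 33.6 CPM in MI-NS and 12.0, 25.2 and 15.3 CPM in MI-DAPA. Within each group the library lowest in Myl7 was also lowest in Dkk3, and MI-DAPA replicate 2 lay above MI-NS replicate 2, so the groups overlapped. In the 4 libraries rich in Myl7, Dkk3 was 209% to 224% of the Myl7 count. In MI-NS replicate 2 and MI-DAPA replicate 1 Dkk3 counts of 437 and 241 stood beside 4 of Myl7.

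The mean of Dkk3 was 35.3 ± 14.7 CPM in MI-NS and 17.5 ± 6.89 CPM in MI-DAPA (SD, n = 3). The log2 fold change was -1.01 ± 0.34 and did not pass (adjusted p = 0.0742, edgeR). Leaving out MI-NS replicate 2 (adjusted p = 0.0333, edgeR) or MI-DAPA replicate 2 (adjusted p = 0.0386, edgeR) brought it past the threshold. The other leave-one-out fits, with log2 fold changes from -1.04 to -0.64, did not.

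Genes closest to Dkk3 over the libraries were Cpsf4 (r = 0.996), Sox9 (0.996), a transcription factor gene of cartilage and valve cells, and Mrc1 (0.994), a macrophage receptor gene. An r of 0.9 with Dkk3 was reached by 300 of 13939 other genes (2.15%), and its r with Myl7 was 0.70. Other Dickkopf genes were scarce: Dkk1 and Dkk4 had 0 counts in all libraries and Dkk2 had 1 to 9. Kremen1, a receptor of Dickkopf proteins, rose 1.40-fold (adjusted p = 0.00629, edgeR). It was the 1 call among 4 tested genes of the family and its receptors, Dkk3 included, beside 16.5% of all tested genes called.

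Clec3a (ENSMUSG00000008874, chromosome 8, 114418086 to 114425846) was the exception among the 6 genes, following the groups. Its counts were 4, 2 and 0 in the MI-NS libraries and 11, 50 and 28 in the MI-DAPA libraries, so every MI-DAPA library lay above every MI-NS library. MI-DAPA replicate 1, with almost no Myl7, still had 0.547 CPM of Clec3a, and MI-NS replicate 1, with the most Myl7, had 0.177 CPM. Summed over libraries, 6 counts in MI-NS stood against 89 in MI-DAPA, a 15.3-fold ratio after scaling, with an exact binomial 95% interval of 6.77 to 42.9 for counting error. The log2 fold change was 3.87 ± 0.78 (adjusted p = 0.0139, edgeR), the highest of all 13940 tested genes. Since Clec3a passed the low-count filter only through the MI-DAPA libraries, its fold change, rank and calls are a description and support nothing further.

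Leaving out any 1 library kept the Clec3a value between 3.35 and 4.70 and its call (edgeR). Without replicate 3 in both groups it was 3.40 ± 0.90 and did not pass (adjusted p = 0.104, edgeR), where 24 genes were called in all. No other gene in the tables overlaps Clec3a.

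Some genes of the conduction system were also higher in every MI-DAPA library. Cpne5, a gene of Purkinje fibres, had 5, 10 and 4 counts in the MI-NS libraries and 14, 38 and 27 in the MI-DAPA libraries, a 4.25-fold rise (log2 2.09 ± 0.50, adjusted p = 0.0251, edgeR). Cpne5 could not have passed the low-count filter on its MI-NS libraries alone. Its fold change, call and correlation with Clec3a are therefore a description and support nothing further. In CPM, replicate 2 was the highest and replicate 1 the lowest of the MI-DAPA libraries for Clec3a, Cpne5 and Cntn2 alike. Myl7, Myl4, Sln, Dkk3 and Nppa had this order too, as did Tbx3 of the conduction list. The order is thus not particular to Clec3a and the Purkinje genes. Other genes of the list ran otherwise: Hcn4 was highest in replicate 1 (7.85 CPM), and Shox2, a transcription factor gene of the sinus node, was lowest in replicate 2 (0.148 CPM). Pearson's r of Clec3a with these genes over 6 libraries, groups included, was 0.935 for Cpne5 and 0.932 for Cntn2, against 0.084 with Myl7.

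Hcn4, the main pacemaker channel gene, rose 3.44-fold (adjusted p = 0.00354, edgeR) and Cntn2, a cell adhesion gene of Purkinje fibres, rose 2.01-fold (adjusted p = 0.00643, edgeR). Of 8 tested node and conduction genes 4 rose and 0 fell, beside 8.69% of all tested genes higher and 7.83% lower. Their median log2 fold change was 0.68. Shox2, on the same list, was lower in every MI-DAPA library than in every MI-NS library (-1.36 ± 0.49) and did not pass (adjusted p = 0.0907, edgeR). Shox2 passed the low-count filter only through the MI-NS libraries. Tbx3, a transcription factor gene of the conduction system, had a log2 fold change of 0.00 ± 0.11 and did not pass. The call of Cpne5 was lost when MI-NS replicate 1 or 3 or MI-DAPA replicate 2 or 3 was left out, with 2 genes of the list then rising, and was kept without MI-NS replicate 2 and MI-DAPA replicate 1 together. Summed over the 10 listed genes, levels were 47.5 to 54.8 CPM in MI-NS and 64.8 to 78.3 CPM in MI-DAPA (exact two-sided permutation p = 0.1, the smallest that 3 against 3 allows; Benjamini-Hochberg adjusted over 7 lists, 0.117). The sinus node gene Isl1 was at 0 in all libraries.

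**Figure D4:**
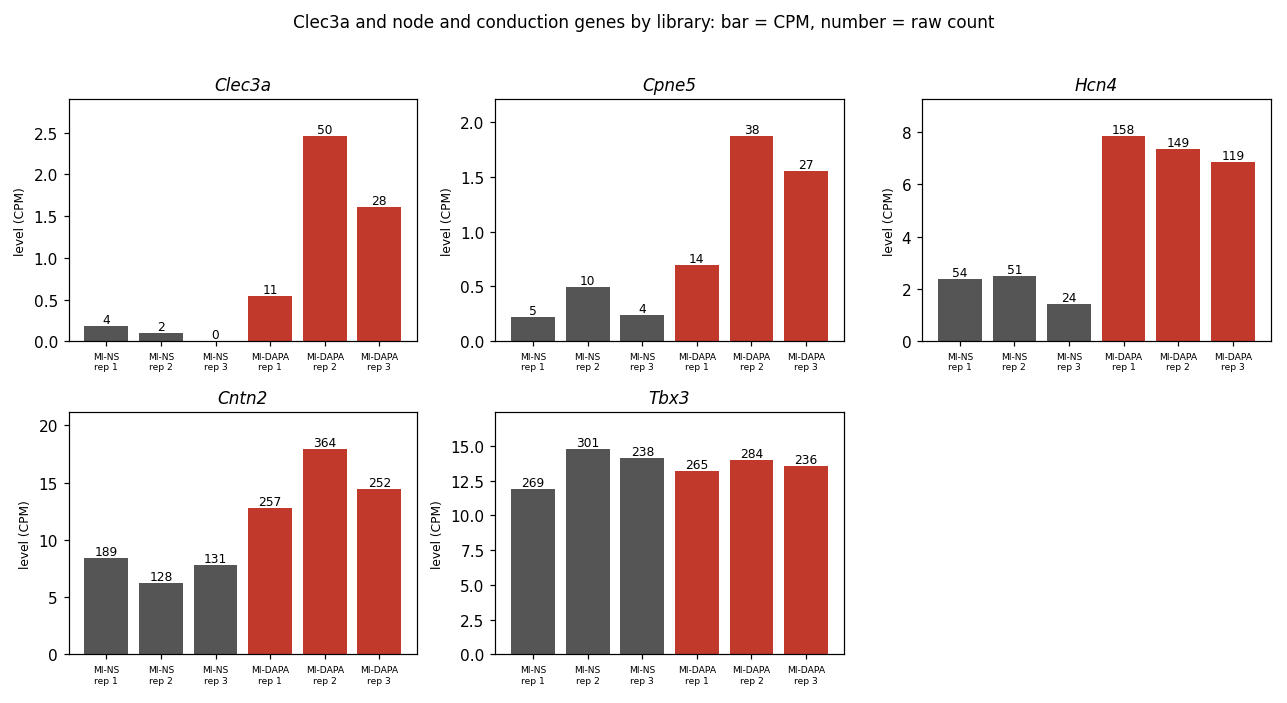
Level of Clec3a and 4 node and conduction genes (vertical axis, CPM, from 0) in each library (horizontal axis; grey, MI-NS; red, MI-DAPA), with the raw count on each bar and no error bar, as each bar is 1 library. Clec3a, Cpne5, Hcn4 and Cntn2 are higher in all MI-DAPA libraries than in all MI-NS libraries, and Tbx3 is not.

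By likeness alone the genes nearest to Clec3a were Pcmt1 (r = 0.996), Snx5 (0.992) and Lancl2 (0.989), and 230 of 13939 other genes (1.65%) reached an r of 0.9. Its relatives moved the other way. Clec3b, which encodes tetranectin, fell 1.43-fold (adjusted p = 0.00641, edgeR) and Clec11a, a secreted lectin gene of bone and stroma, fell 4.78-fold (log2 -2.26 ± 0.46, adjusted p = 0.014, edgeR). The call of Clec11a was lost without MI-DAPA replicate 1 or 3.

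Markers of other tissue that can lie near the atria and valves also differed between libraries. The mesothelial gene Upk3b had 123, 1 and 44 counts in the MI-NS libraries and 6, 5 and 15 in the MI-DAPA libraries, and Msln, which encodes mesothelin, had 62, 1 and 28 in the former against 3, 4 and 2 in the latter. In MI-NS both were high in the libraries high in Myl7, and both were named after their values were seen. Lrrn4 (53, 0 and 13 counts) and Upk1b (23, 3 and 11) of the same list ran likewise in MI-NS replicates 1 to 3. So did Krt19 (12, 0 and 2) and Bnc1 (3, 0 and 12), at few counts. Krt18, a keratin gene, did not, with 2.08, 3.14 and 2.08 CPM in MI-NS replicates 1 to 3. Wt1, a transcription factor gene of mesothelium, did not either, with 5.50, 5.40 and 4.28 CPM. Krt8 had 0.532, 0.343 and 0.178 CPM, and Gpm6a had 4.13, 2.35 and 2.56 CPM. In MI-DAPA replicates 2 and 3, with 245 and 119 Myl7 counts, Upk3b and Msln stayed low. Summed over 10 mesothelial genes, levels were 24.5, 11.5 and 15.6 CPM in MI-NS replicates 1 to 3. In MI-DAPA replicates 1 to 3 they were 6.31, 8.71 and 8.96 CPM (exact two-sided permutation p = 0.1, the smallest possible, and 0.117 adjusted over 7 lists). The library lowest in Myl7 had the lowest sum in each group. Of 4 tested mesothelial genes 1 fell, Krt18, beside 7.83% of all tested genes lower. Krt18 could not have passed the low-count filter on its MI-DAPA libraries alone. The number of the 10 at 0 was 0, 3 and 0 in MI-NS replicates 1 to 3. It was 1, 2 and 3 in MI-DAPA replicates 1 to 3. Without MI-NS replicate 2 the list had 5 falls, which is not a count out of these 4. The low-count filter was run again there and left 14167 genes. Listed genes high in MI-NS replicates 1 and 3 could enter that way.

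Cartilage genes, which valves and scar also express, were highest in MI-NS replicate 1 as well. Their summed level over 13 genes was 294, 91.5 and 185 CPM in MI-NS replicates 1 to 3 and 22.1, 42.6 and 31.4 CPM in MI-DAPA (exact two-sided permutation p = 0.1; adjusted over 7 lists, 0.117), most of it in MI-NS from Comp, a matrix gene that scar fibroblasts use. In each group the library lowest in Myl7 had the lowest sum. Of 8 tested genes 3 fell, beside 7.83% of all tested genes lower: Comp 9.52-fold (log2 -3.25 ± 0.43, adjusted p = 0.00451, edgeR), Cilp2 (-2.36 ± 0.40) and Col11a1 (-2.70 ± 0.70). Without MI-NS replicate 2, with the low-count filter run again, 7 fell, which is not a count out of these 8. Listed genes high in MI-NS replicates 1 and 3 could enter that way. Col11a1 could not have passed the filter on its MI-DAPA libraries alone. Col11a1 kept its call in 1 of 6 leave-one-out fits, and with the replicate number as a block it had adjusted p = 0.0681 by edgeR. The part of these tissues in the levels of Dkk3 and the other atrial marker genes was not tested.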

How the data were processed

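RNA-seq libraries were made from left ventricle tissue (3 MI-NS, 3 MI-DAPA); groups come from the sample titles. For each library the authors deposited raw counts of reads per gene. Per the submitters' processing notes the build is mm10, with StringTie 1.3.0 and edgeR named as tools and their roles not given. Aligner, counting program and use of strand: not given in the sources used here. All pairs of libraries differed by more than sampling noise, with a chi-square of 10.51 to 49.61 per degree of freedom. Nothing in the labels ties a library to an animal, so p-values measure the spread between libraries.

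The 6 genes, the 15 gene lists and the tests were chosen with earlier results of these data known. The test was run in R 4.3.3 with edgeR 4.0.16: filterByExpr by group (minimum count 10, total 15), which left 13940 of 34745 genes, TMM scaling, glmQLFit and glmQLFTest, and Benjamini-Hochberg adjustment over all tested genes (threshold 0.05). A standard error is the size of a log2 fold change over the root of its F statistic. Log2 CPM used a prior count of 2. Levels per kilobase used the longest principal transcript of GENCODE M21. The steps were tested on simulated data. Named genes are the 6, up to 4 of each list with the smallest p, fixed partners (such as Myl2 and Pln) and the 3 closest by correlation. Mybphl, Upk3b, Msln, Lrrn4, Upk1b, Krt19, Bnc1, Krt8, Shox2, Dkk1, Dkk2, Dkk4, Gdf2, Isl1, Tbx3 and Irx4 were named after their values were seen. Alternatives were other scalings (RLE, upper quartile, library totals), no low-count filter, DESeq2 1.42.0, a replicate block and left-out libraries. Some genes of the lists count in the totals but are not reported here by name.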

Additional observations from a re-analysis of the deposited data

How the results depend on the processing

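Scaling by RLE, upper quartile or library totals, and DESeq2, changed neither the direction nor the call of Myl7, Myl4, Sln, Dkk3 or Clec3a. Without a low-count filter Dkk3 passed (-1.0, adjusted p = 0.0317, edgeR). With library totals 410 genes were higher (24.7% of calls, against 52.6%), and the median of all tested genes moved from -0.02 to -0.12 on the log2 scale. Leaving out 1 library gave 998 to 1863 calls (541 to 1087 higher, 457 to 844 lower), 15 to 28 higher and 22 to 35 lower among genes of the lists (28 and 28 with all libraries), and log2 fold changes of -1.89 to -0.24 for Myl7, -0.80 to 0.32 for Myl4, -1.76 to 0.05 for Sln, -1.36 to -0.64 for Dkk3 and 3.35 to 4.70 for Clec3a. The summed lung genes, 0.827 and 0.696 CPM in MI-NS and MI-DAPA, differed by -0.36 to 0.054 CPM. Without Nppa, an alternative chosen after seeing the data, the summed other atrial genes were 131 CPM higher in MI-DAPA, where with it they were lower, since Nppa itself fell. Without replicate 3 in both groups 24 genes were called (8 higher, 16 lower; 0 and 1 of the lists), Clec3a was at 3.40 (adjusted p = 0.104, edgeR), and of the related genes named with a call Nppa kept it. Without MI-NS replicate 2 and MI-DAPA replicate 1 together 877 genes were called (395 higher, 482 lower; 16 higher in the lists). The causes of these shifts beyond the smaller number of libraries were not tested. Ratios of 2 genes, as differences between groups, moved by less than the spread between replicates in every alternative. Same-numbered libraries of the groups had correlations of deviations of 0.044, -0.005 and 0.113, so the numbers are not taken to pair them. Replicate 3 had the lowest total count and the highest share of mitochondrial counts in each group. That share was 42.0% in MI-NS and 40.7% in MI-DAPA, against 34.3% to 37.6% in the other libraries. The cause of this likeness was not tested. With the replicate block the log2 fold changes were -0.86 for Myl7, -0.20 for Myl4, -0.71 for Sln, -0.99 for Dkk3 and 3.74 for Clec3a (adjusted p = 0.0269, edgeR), and no call among these 5 changed. Depth limits Bmp10, Clec3a in MI-NS, and Sln and Myl7 in MI-NS replicate 2 and MI-DAPA replicate 1, which lie at or near the floor of 3 counts.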

Other observations

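The lists that the account above leaves out were counted by the same test, beside 8.69% of all tested genes higher and 7.83% lower in MI-DAPA. Of 10 tested fetal and stress genes 6 fell and 2 rose (median log2 fold change -0.45), among them Nppb, the gene of B-type natriuretic peptide, at -1.01 ± 0.14 and Acta2, smooth muscle actin, at -0.82 ± 0.09 (adjusted p = 0.0049 and 0.00317, edgeR). Of 10 fibroblast and scar genes 8 fell and 0 rose (median -1.23), among them Comp, which is also on the cartilage list and had the largest fall of the 10 (-3.25), and Postn, a matricellular protein gene of activated fibroblasts, at -1.49 ± 0.13 (adjusted p = 0.00165, edgeR). Of 10 cardiomyocyte genes 6 rose and 0 fell (median 0.31). Of 9 tested ventricular genes 1 rose, Pln, and 1 fell, Myh7 (-0.34 ± 0.09, adjusted p = 0.0369, edgeR), whose call held in 1 of 6 leave-one-out fits.

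Of 10 tested skeletal muscle genes 3 rose and 0 fell, among them Pvalb, the calcium buffer parvalbumin, with 6, 9 and 3 counts in the MI-NS libraries and 25, 23 and 17 in the MI-DAPA libraries (3.68-fold, adjusted p = 0.0153, edgeR). Pvalb passed the low-count filter only through the MI-DAPA libraries, so its rise and call are a description and support nothing further. The fast skeletal myosin gene Myh4 was at 0 in every library, and summed levels of the 16 listed genes, several of which heart muscle also expresses, were 5890 to 6876 CPM in MI-NS and 7045 to 8427 CPM in MI-DAPA (exact two-sided permutation p = 0.1, the smallest possible). The surfactant genes Sftpc, Sftpa1 and Sftpd were at 0 in all libraries, and the 1 lung gene tested, Ager, did not pass. Summed levels of the 9 ventricular genes were 10550 to 12250 CPM in MI-NS and 13170 to 14430 CPM in MI-DAPA, and those of the 17 other atrial genes, Nppa included, were 1793 to 2122 and 987 to 1064 CPM (exact two-sided permutation p = 0.1 for each; adjusted over 7 lists, 0.117). Without Nppa, left out after its values were seen, the 16 remaining atrial genes ran the other way, with 499.5 to 653 CPM in MI-NS against 703 to 726 CPM in MI-DAPA (exact two-sided permutation p = 0.1, the smallest possible).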
